A study of Mus musculus with 12 samples.

Results

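The 6 libraries described here came from bone-marrow-derived macrophages (BMDMs), out of 12 libraries in the series, and were chosen by tissue and genotype labels alone. Bone marrow was taken from 6-week-old male mice on the C57BL/6N background that were littermates, and the marrow cells were grown for 7 days with 10 ng/mL M-CSF, the growth factor that drives marrow precursors into macrophages. Both groups carried a *Tshr* allele floxed from exon 10 to the stop codon. The Tshr f/f group (n = 3) had no Cre, and the Tshr MKO group (n = 3) also carried Lyz2-Cre, in which the promoter of the myeloid gene *Lyz2* drives the recombinase. All 6 cultures were kept for 24 h with TSH at 1 ng/mL. No library without TSH was included, so genotypes were compared under TSH and the response to TSH itself could not be measured. The other 6 libraries of the series were livers and served only in 1 alternative fit. P-values here measure the spread between these 3 and 3 libraries, and bulk RNA cannot tell fewer cells of a type apart from less RNA per cell.

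TSH is the pituitary hormone that drives the thyroid. Its receptor couples mainly to Gs and cAMP, and it is also found outside the thyroid, myeloid cells included. Macrophages move between an inflammatory state, with NF-κB and interferon programs, nitric oxide and itaconate synthesis, and states rich in lysosomes, scavenger receptors and lipid export.

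The libraries held 33683981 to 40954211 counts. The counts of *Tshr* were 0, 0 and 2 without Cre and 0, 0 and 5 with Cre, too few to check the deletion. Levels below are in CPM, the counts scaled to a common library size after TMM adjustment. *Lyz2*, whose promoter drives Cre, was at 8871, 9844 and 8773 CPM in the f/f libraries against 16149, 14537 and 22320.1 in the MKO libraries (log2 fold change 0.95 [0.92], SE 0.25). Its level does not check the Cre genotype, and the cause of the difference was not tested. Reads of *Lyz2* can be shared with its near-identical neighbour *Lyz1*. Macrophage markers were abundant in all libraries, with *Csf1r* at 2073, 1644 and 1551 CPM against 2048, 1879.9 and 2586 and *Adgre1* at 1162, 1272 and 1536 CPM against 1137, 1089 and 1008, the Tshr f/f group first. The 15 macrophage markers summed to 27880 to 28600 CPM in the f/f group and 37420 to 48410 in the MKO group, and without *Lyz2* and *Ctsd* to 8889 to 11460 and 10580 to 13930. The 10 neutrophil markers summed to 40.7, 647 and 962 CPM in f/f against 34.1, 20.7 and 117 in MKO, mostly *Lcn2* and *Mmp8*. The defining markers *Ly6g* and *Cxcr2* were at most 0.226 and 0.209 CPM in any library. *Camp* was higher in f/f, at 1.631, 1.259 and 2.994 CPM against 0.1565, 0.2665 and 0.1926. *S100a8* was at 5.219, 28.96 and 45.6 CPM against 3.079, 3.544 and 8.789, with overlapping groups. *Ngp* and *Retnlg* went the other way, at most 0.07676 and 0.1151 CPM in f/f and at least 0.1445 and 0.5596 in MKO. The 12 stromal markers were highest in Tshr f/f replicate 2 (1281, 2848 and 1189 CPM against 1260, 1570 and 809), and the part of other cells in the results was not tested.

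Tshr f/f replicate 3 stood apart from the other 5 libraries. Its TMM factor was 0.738, against 0.993 to 1.114 elsewhere, and its score on the first principal component (59.9% of the variance) was −119, against −17.6 and −2.38 for the other Tshr f/f libraries and 36.0 to 53.3 for Tshr MKO. The log2 fold change of each gene is therefore followed, in square brackets, by its value without that library, and the main list medians are given both ways. Tshr MKO replicates 1 and 2 were the closest pair of libraries. Their Pearson correlation on log2 CPM was 0.985, against 0.898 to 0.975 for the other pairs, so close Tshr MKO values below rest partly on this pair.

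Of 15372 genes that passed the filter on low counts, edgeR called 0 (0.0%) at an adjusted p under 0.05, with a lowest adjusted p of 0.218. At an unadjusted p under 0.05 it placed 1567 genes lower (10.2%) and 1189 higher (7.73%) in Tshr MKO BMDMs, and without Tshr f/f replicate 3 it placed 1179 lower and 1250 higher. Other tools called more on the same counts. At an adjusted p under 0.05 DESeq2 called 701 lower and 522 higher, limma voom with sample quality weights called 860 and 571, and edgeR on all 12 libraries called 85 and 65. Because no gene passed the main test, the words lower and higher below describe values and not calls, and the 170 named genes had edgeR adjusted p from 0.218 to 0.629. Values are given for replicates 1, 2 and 3 of Tshr f/f first and then of Tshr MKO.

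In 4414 genes, or 28.7%, all 3 values of a genotype lay on the same side of the 3 values of the other, with 2146 genes lower (14.0%) and 2268 higher (14.8%) in Tshr MKO BMDMs. A stricter group, called steady here, also had a mean of at least 50 counts, separate groups with and without TMM factors, and a log2 fold change that stayed of the same sign and between 2/3 and 1.5 times its full value when any single library was left out. There were 1593 steady genes (10.4%), 470 lower (3.06%) and 1123 higher (7.31%). The median log2 fold change was −1.18 for the lower genes and 0.73 for the higher genes, and −0.97 and 0.58 without Tshr f/f replicate 3. The rule itself bears on these medians and counts. Without TMM factors fewer genes were separate lower (1406) and more were separate higher (2546), and steady genes had to be separate on both scales. The smallest steady differences were −0.38 for lower and 0.13 for higher genes. With library size alone as the scale, which shifted the median of all genes from 0.01 to 0.175, the steady genes were 887 lower and 931 higher, of which 403 and 665 were shared with the main lists. Tshr f/f replicate 3 was the highest Tshr f/f library in 423 of the 470 steady lower genes (90.0%), against 37.0% of all genes tested, and the lowest in 864 of the 1123 steady higher genes (76.9%), against 44.5% of all genes. Most steady genes lay outside the 51 function lists used below, which held 18.9% of the lower and 9.08% of the higher genes, against 7.96% of all genes tested.

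**Figure D1:**
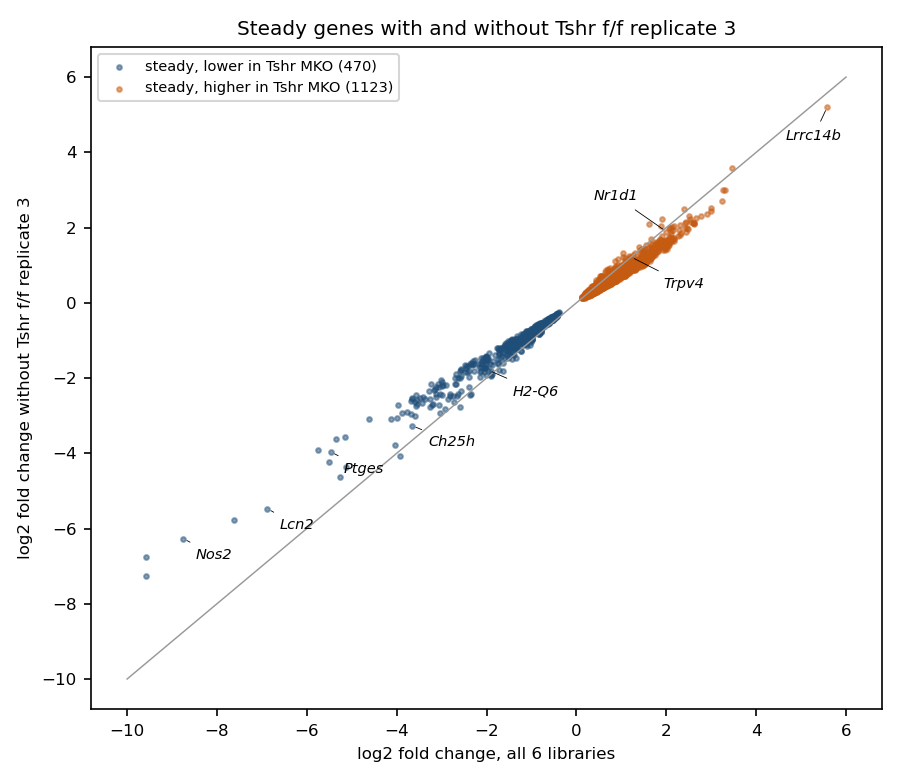
Log2 fold change (Tshr MKO minus Tshr f/f) of the 470 steady lower and 1123 steady higher genes with all 6 libraries (x axis) and without Tshr f/f replicate 3 (y axis), with the line of equal values. Large differences shrink without that library, as for Nos2 from −8.75 to −6.27, while Trpv4 and Nr1d1 lie on or near the line.

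Outside the study's cytokine list, the steady lower genes with the widest gap between the groups were led by *Nos2* (ENSMUSG00000020826, chromosome 11, 78920787–78960254, GRCm38), the inducible nitric oxide synthase. It was at 411, 470.4 and 6549.7 CPM in the f/f libraries against 2.45, 3.15 and 11.6 in the MKO libraries (log2 fold change −8.75 [−6.27], SE 1.67). The choice of genes with a wide gap required all 3 Tshr f/f values to lie above the Tshr MKO values. Tshr f/f replicate 3 was by far the highest. *Ptges*, which makes prostaglandin E2, was at 234, 313 and 1768 CPM against 17.4, 19.5 and 15.6 (log2 fold change −5.46 [−3.96], SE 0.92). *Upp1*, a uridine phosphorylase, was at 46.8, 47.4 and 253 CPM against 0.783, 0.827 and 5.95 (log2 fold change −5.51 [−4.22], SE 1.21). *Ch25h*, which makes 25-hydroxycholesterol, was at 22, 12.7 and 33.7 CPM against 2.09, 2.24 and 1.08 (log2 fold change −3.66 [−3.26], SE 0.47). *Ch25h* was the least dependent of these on replicate 3. The secreted factors *Lif* (−4.61 [−3.08]) and *Inhba*, the activin A subunit (−5.34 [−3.62]), belonged to the same 12 genes, with *Lcn2*, an iron-siderophore binding protein (−6.88 [−5.47]), *Mir155hg*, the host transcript of miR-155 (−5.16 [−3.56]), *Tet1*, a methylcytosine dioxygenase (−3.26 [−2.56]), and *Tmc3*, which had 0, 4 and 0 counts in the MKO libraries. The formyl peptide receptors *Fpr1* and *Fpr2*, which sense bacterial peptides and other chemoattractants, were both lower. *Fpr2* was at 490.4, 430.2 and 1570.5 CPM against 61, 66 and 86.5 (log2 fold change −3.54 [−2.69], SE 0.58). *Fpr1* was at 366, 363 and 1626 CPM against 53.5, 48.5 and 83.4 (log2 fold change −3.67 [−2.56], SE 0.71). Replicates 1 and 2 of Tshr f/f were close to each other in both receptors. The choice of these genes required them to lie clear of the Tshr MKO values.

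Among the steady lower genes with the most reads were secreted proteins of the acute-phase kind. Complement factor B, *Cfb*, was at 3484, 3227 and 8651 CPM against 558, 483 and 824 (log2 fold change −3.04 [−2.44], SE 0.49). Complement *C3* was at 3061, 2219 and 5006 CPM against 977, 939 and 1582 (log2 fold change −1.56 [−1.18], SE 0.39). Serum amyloid A3, *Saa3*, was at 2672, 6913 and 15071 CPM against 747, 426 and 1117 (log2 fold change −3.43 [−2.65], SE 0.72). Their groups were separate because the steady rule required it. *Fth1*, the ferritin heavy chain that stores iron, was lower by less, at 17647, 20327 and 28053 CPM against 12158, 12127 and 11839 (log2 fold change −0.87 [−0.65], SE 0.26), with 3 nearly equal Tshr MKO values. *Clec4e* (Mincle, a receptor for mycobacterial glycolipids, −3.48 [−2.53]), *Acod1* (the itaconate-making enzyme, −3.15 [−2.30]) and *Prdx1* (a peroxiredoxin, −1.24 [−0.83]) completed the set with *Nos2*.

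The steady higher genes with the widest gap were mostly of low level. *Lrrc14b* was at 0.452, 0.0229 and 0.0384 CPM against 13, 6.64 and 6.51 (log2 fold change 5.58 [5.21], SE 0.95). *Gprc5c*, an orphan receptor, was at 0.351, 0.321 and 0.154 CPM against 1.98, 2.85 and 3.33 (log2 fold change 3.26 [3.01], SE 0.42). *Cd28*, a costimulatory receptor best known from T cells, was at 5.75, 3.99 and 2.07 CPM against 19.3, 17.1 and 28 (log2 fold change 2.44 [2.14], SE 0.40). Each had its lowest or near-lowest value in Tshr f/f replicate 3. *Daam2*, a formin (3.30 [2.996]), *Engase*, a glycan-cleaving enzyme (2.77 [2.31]), *Slc46a3*, a lysosomal transporter (2.63 [2.12]), *Gpd1*, glycerol-3-phosphate dehydrogenase (2.54 [2.15]), *Nat8l*, which makes N-acetylaspartate (2.995 [2.53]), *Zfyve28* (3.24 [2.71]) and *Kctd12b* (2.32 [1.85]) were also in this group, with the clock genes *Nr1d1* and *Dbp* described below. The most read steady higher genes were largely lysosomal or secreted: *Psap* (0.57 [0.45]), *Ctsd* (0.50 [0.40]), *Lamp1* (0.25 [0.27]), *Lgmn* (0.97 [0.85]), *Gpnmb* (0.79 [0.64]), *Lgals3*, galectin-3 (0.76 [0.55]), and *Itm2b* (0.66 [0.54]). The groups of *Lamp1* (SE 0.20, highest f/f value 2897 CPM, lowest MKO value 2969) and *Gpnmb* (5706 and 5809) nearly touched. With library size alone as the scale *Psap*, *Ctsd* and *Lgals3* were no longer steady.

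**Figure D2:**
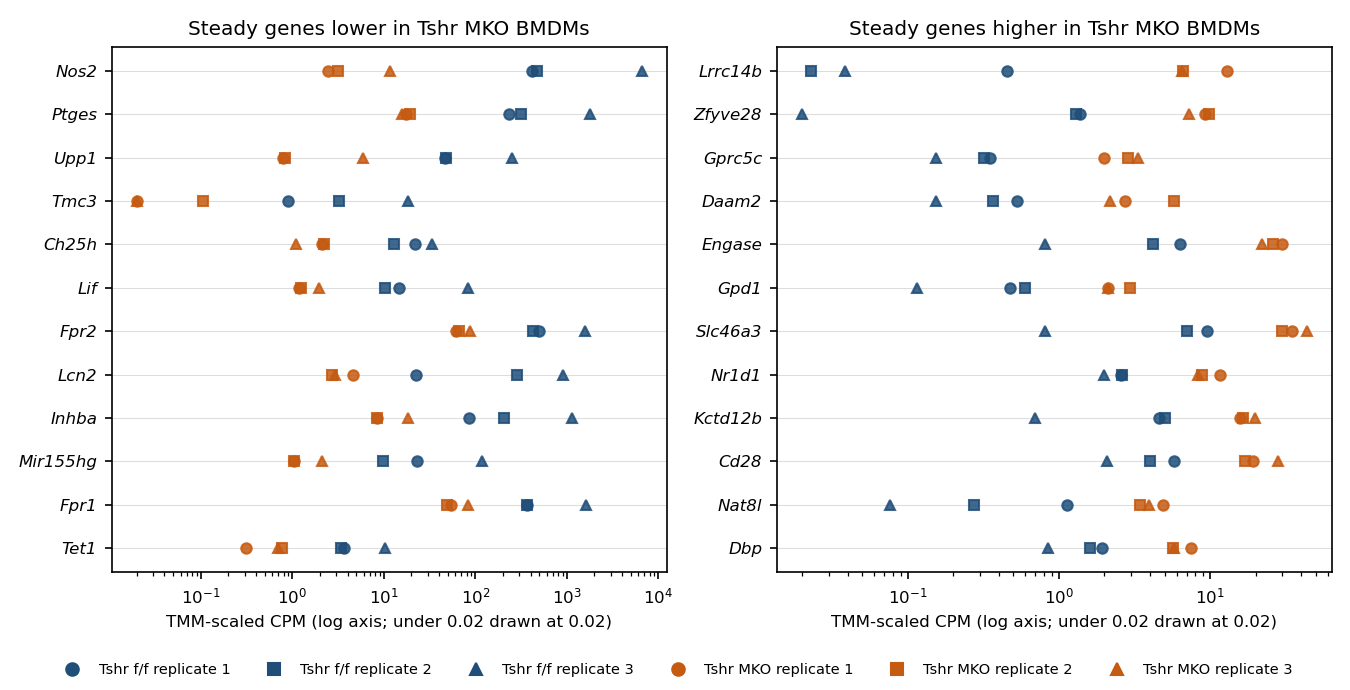
TMM-scaled CPM (log axis) in each of the 6 libraries for the 12 steady lower (left) and 12 steady higher (right) genes with the widest gap between genotypes; colour gives the genotype and shape the replicate. No gene overlaps between genotypes, which the choice of steady genes required. The triangles of Tshr f/f replicate 3 are the rightmost in all 12 lower genes and the leftmost in 11 of the 12 higher genes.

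In several steady genes the difference was nearly as large without replicate 3. *Trpv4*, a calcium channel opened by stretch and heat, was at 10.2, 8.59 and 9.95 CPM in the f/f libraries against 23.4, 20 and 22.7 in the MKO libraries (log2 fold change 1.20 [1.23], SE 0.14). *H2-Q6*, a nonclassical MHC class I gene, was at 342, 279 and 434 CPM against 85.3, 81.1 and 104 (log2 fold change −1.97 [−1.79], SE 0.22). *Jun*, an AP-1 subunit, was at 147, 99.3 and 101.8 CPM against 274.7, 235 and 249.9 (log2 fold change 1.13 [1.04], SE 0.20). The immediate-early and MAP kinase feedback list that holds *Jun* went the other way in 21 of 30 genes. It had 3 separate lower and 2 separate higher members, and a median of −0.50 (−0.05 without Tshr f/f replicate 3). *Tlr8*, an endosomal RNA sensor, was at 234, 246 and 193 CPM against 443, 412 and 517 (log2 fold change 1.03 [0.93], SE 0.18). *Fas*, the death receptor, was at 35.2, 27.6 and 55.6 CPM against 7.34, 7.79 and 11.9 (log2 fold change −2.13 [−1.81], SE 0.33). Here too the steady rule required separate groups. *Itga6*, an integrin (33.2, 14.8 and 20.7 CPM against 122, 88.6 and 75.4, log2 fold change 2.06 [1.99]), *Irf4*, a factor of alternative activation (3.09, 2.43 and 2.84 CPM against 5.54, 6.61 and 8.53, 1.31 [1.32]), and *Sat1*, which acetylates polyamines (156, 116 and 144 CPM against 274.7, 248 and 300.4, 0.98 [1.01]), also differed nearly as much without it.

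The function lists are given by their counts and medians, to be read against 7570 genes lower and 7802 higher of all 15372 tested, with a median of 0.01. Counts of separate members are to be read against 14.0% separate lower and 14.8% separate higher of all genes tested. For steady members these shares were 3.06% and 7.31%. NF-κB feedback and signal regulators were lower in 23 of 24 genes, 18 of them with separate groups, with a median of −1.745 on the log2 scale (−0.94 when replicate 3 of Tshr f/f was left out). *Nfkbie*, an inhibitor that holds NF-κB in the cytoplasm, was at 161, 66.6 and 259.6 CPM against 31.9, 34.3 and 57.7 (log2 fold change −1.97 [−1.47], SE 0.52). *Zc3h12c*, an RNA-decay factor, had a log2 fold change of −2.25 [−1.51] and *Birc2*, a ubiquitin ligase of TNF receptor complexes, of −0.86 [−0.75]. In *Birc2* (65.6, 38.2 and 64.5 CPM against 27.9, 32.2 and 32.9) Tshr f/f replicate 2 came close to the Tshr MKO values. Of the 14 tested genes of the study's cytokine list, which the authors chose from these libraries and which is therefore no independent evidence, 14 were lower, 12 had separate groups and 3 were steady (*Il12a*, *Il12b* and *Cxcl10*).

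Antigen processing for MHC class I moved together. All 18 genes of the list were lower in Tshr MKO BMDMs, 13 with separate groups and 11 steady, with a median of −0.995 (−0.78 without Tshr f/f replicate 3). After *H2-Q6*, *H2-Q7* was at 607, 467 and 987 CPM against 218, 197 and 225 (log2 fold change −1.68 [−1.33], SE 0.30). *H2-Q4* was at 550.0, 436 and 726 CPM against 246, 229.9 and 279.8 (log2 fold change −1.18 [−0.97], SE 0.23). Reads of the H2-Q genes may be split between near-identical copies, so single members are uncertain. The peptide transporters *Tap1* (428, 253 and 629.8 CPM against 165, 153 and 183, −1.39 [−1.03]) and *Tap2* (−1.37 [−0.97]), the chaperone *Tapbpl* (−1.16 [−1.05]) and the trimming peptidase *Erap1* (−0.66 [−0.49]) are not copies of them and were steady in the same direction. Of the 14 MHC class II genes 0 were separate, and their median was 0.34 (0.18 without Tshr f/f replicate 3) but −0.65 with voom and −0.44 without Tshr MKO replicate 3, so they give no direction. They were highest in Tshr MKO replicate 3 and next in Tshr f/f replicate 1.

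The proteasome list was lower in 36 of 36 genes, 32 with separate groups and 8 steady, with a median of −0.56 (−0.34 without Tshr f/f replicate 3). The summed level was 5241, 4269 and 7469 CPM against 3503, 3646 and 3466, the f/f group first. The differences were larger in the interferon-inducible parts that shape peptides for MHC class I. *Psme2*, of the 11S activator, was at 469, 271 and 777 CPM against 166, 186 and 176 (log2 fold change −1.52 [−1.07], SE 0.38). *Psmb8* was at 384, 308 and 456 CPM against 167, 186 and 219.9 (log2 fold change −1.003 [−0.86], SE 0.21), *Psmb9* at −0.99 [−0.83] and *Psmb10* at −1.03 [−0.80] on the log2 fold change scale. *Psmb5*, the constitutive counterpart of *Psmb8*, was at 85.6, 93.8 and 126 CPM against 63.8, 64.6 and 57.7 (log2 fold change −0.71 [−0.53], SE 0.17). The 3 Tshr MKO values of each of these genes lay close together, and the spread was among the Tshr f/f libraries.

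*Tap1* and *Psmb9* start back to back on chromosome 17. RefSeq (GRCm38.p6) places 225 bases between their start sites, shown because both genes flanking it were steady lower (plus strand, chr17:34187331-34187555, all lower case because none of the motifs searched below matched):

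Tap1 and Psmb9, between the starts: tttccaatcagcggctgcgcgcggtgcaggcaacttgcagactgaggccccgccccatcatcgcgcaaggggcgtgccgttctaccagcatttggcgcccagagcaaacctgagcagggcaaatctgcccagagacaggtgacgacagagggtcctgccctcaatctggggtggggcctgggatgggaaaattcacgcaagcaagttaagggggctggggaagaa

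Promoters of the steady genes were searched for short motifs on both strands, in RefSeq windows from 250 bases before to 50 after each start (13709 windows for 10746 genes tested, 410 for 331 steady lower and 1165 for 861 steady higher genes). An IRF-like match (GAAANNGAAA, interferon regulatory factors) was in 7.8% of the windows of steady lower genes, 2.92% of those of steady higher genes and 3.31% of all. These were 32, 34 and 454 windows, and some of the 32 belonged to the same gene or to related genes, such as the Gbp genes. A CRE (TGACGTCA, the site of the cAMP-responsive factor CREB) was in 3.9%, 2.06% and 2.87%, and an E-box (CACGTG, bound by clock and lysosome regulators) in 9.02%, 11.9% and 9.71%. An E-box with flanks (TCACGTGA, a part of the E-box matches) was in 0.976%, 2.23% and 1.75%. A STAT-like match (TTCCNGGAA) was in 1.95%, 0.687% and 1.2%, and an NF-κB-like match (GGGANTTTCC) in 0.244%, 0.515% and 0.489%. In windows these were 8, 8 and 165 for the STAT-like match and 1, 6 and 67 for the NF-κB-like match. G and C made up 57.6% of the bases in windows of steady lower genes, against 61.0% for steady higher genes and 60.1% for all. The part of base composition in these shares was not tested. A match is a description of letters and not a site in use.

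The stretches below are shown for named genes that hold a match, with the match in capitals, 5′ to 3′ on the strand of the gene (RefSeq, GRCm38.p6). *Gbp2* and *Gbp5*, interferon-induced GTPases, and *Saa3* hold IRF-like matches, whose first base is at −59, −165 and −125 from the start (chr3:142620584-142620633, chr3:142496749-142496798 and chr7:46715772-46715821). *Ch25h*, lower, and *Daam2*, higher, each hold a CRE, at −61 and −27 (chr19:34475182-34475229 and chr17:49564338-49564384). *Cry1*, a lower clock gene, and the higher lysosomal proteases *Ctsd* and *Lgmn* hold an E-box, at −60, −98 and −49 (chr10:85185089-85185134, chr7:142387900-142387945 and chr12:102439116-102439161).
Gbp2: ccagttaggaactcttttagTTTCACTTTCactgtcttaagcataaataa
Gbp5: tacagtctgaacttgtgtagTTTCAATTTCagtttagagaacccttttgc
Saa3: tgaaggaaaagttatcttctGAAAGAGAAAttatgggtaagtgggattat
Ch25h: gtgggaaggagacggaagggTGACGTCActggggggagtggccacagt
Daam2: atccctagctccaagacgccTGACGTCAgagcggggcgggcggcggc
Cry1: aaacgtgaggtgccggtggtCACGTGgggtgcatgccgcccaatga
Ctsd: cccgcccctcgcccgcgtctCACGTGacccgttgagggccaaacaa
Lgmn: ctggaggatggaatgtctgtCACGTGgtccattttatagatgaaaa

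Interferon-stimulated genes were lower in 40 of 40, with a median of −1.63 (−1.07 without Tshr f/f replicate 3). However, only 7 of the 40 had separate groups, not far above the share of all genes tested that were separate lower (14.0%). The mean log2 level of the list, relative to the mean of the Tshr MKO libraries, was 1.78 in Tshr f/f replicate 1 and 2.53 in replicate 3, and −0.52 in replicate 2, below all 3 Tshr MKO libraries. Several guanylate-binding proteins were separate. *Gbp2* was at 1403, 701 and 2529.7 CPM against 160.5, 209 and 347 (log2 fold change −2.69 [−2.15], SE 0.55). *Gbp5* was at 724, 134 and 1814 CPM against 32.7, 41.3 and 77.8 (log2 fold change −4.14 [−3.10], SE 0.96), and *Gbp3* (−2.46 [−1.74]) and *Gbp7* (−2.13 [−1.46]) were also steady, as was *Zbp1*, a nucleic acid sensor (−2.02 [−1.44]). In *Gbp2* and *Gbp5* replicate 2 was the lowest Tshr f/f library, and the steady rule required it to lie above every Tshr MKO value.

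Glycolysis and hypoxia-response genes split the Tshr f/f libraries in another way. Glycolysis genes were lower in 20 of 22, with 7 separate lower and 2 separate higher (median −0.79, −0.71 without Tshr f/f replicate 3). Hypoxia-response genes were lower in 17 of 19, with 6 separate lower and 0 separate higher (median −1.61, −1.12 without replicate 3). The mean log2 level of the hypoxia list was 1.74 and 1.43 above the Tshr MKO mean in Tshr f/f replicates 2 and 3 but 0.10 in replicate 1, inside the Tshr MKO range of −0.15 to 0.24. Matrix genes had the same order (0.09, 0.92 and 0.69). *Slc2a1*, the glucose transporter GLUT1, was separate in all libraries at 100.4, 186 and 432 CPM against 41.4, 41.4 and 63 (log2 fold change −2.30 [−1.56], SE 0.55), as were *Hk3*, a hexokinase of myeloid cells (875, 661 and 1143 CPM against 497, 513 and 438, −0.89 [−0.67]), and *Pfkp*, a phosphofructokinase (−0.74 [−0.54]). Among matrix genes *Mmp2*, a gelatinase, was at 18.6, 32.4 and 64.1 CPM against 1.23, 2.91 and 5.3 (log2 fold change −3.60 [−3.02], SE 0.68), while the protease inhibitor *Timp2* was higher (241, 129 and 92.9 CPM against 457, 441 and 392, 1.48 [1.22]).

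**Figure D3:**
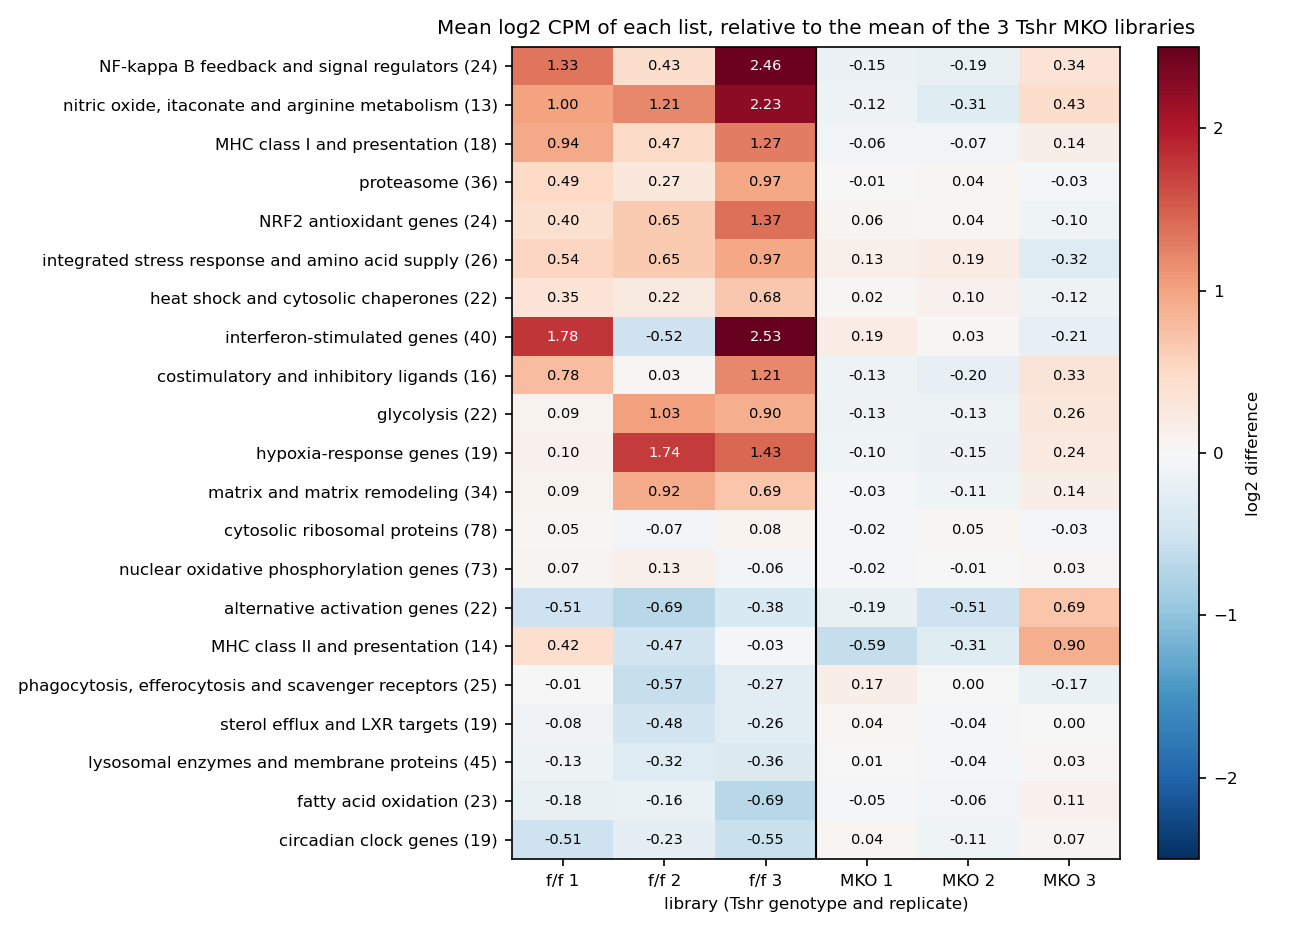
Mean log2 CPM over the tested members of 21 function lists (rows, with the number of members) in each library (columns), relative to the mean of the 3 Tshr MKO libraries. NF-κB, nitric oxide, MHC class I, proteasome, antioxidant and stress lists were higher in all 3 Tshr f/f libraries than in any Tshr MKO library, whereas interferon-stimulated genes were at −0.52 in replicate 2 and hypoxia-response genes at 0.10 in replicate 1.

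Nitric oxide, itaconate and arginine genes were lower in 11 of 13, with 7 separate lower and 1 separate higher (median −1.675, −0.60 without Tshr f/f replicate 3). Besides *Nos2* and *Acod1*, *Ass1*, which regenerates arginine for nitric oxide synthesis, was at 178, 143 and 345 CPM against 54.9, 49.5 and 51.5 (log2 fold change −2.09 [−1.63], SE 0.34). *Gch1*, which makes the cofactor of nitric oxide synthase (−2.49 [−1.48]), and the arginine transporter *Slc7a2* (−3.63 [−1.87]) were separate but not steady. Genes of antioxidant defence under NRF2 were lower in 18 of 24, with 11 separate lower and 0 separate higher (median −0.72, −0.39 without replicate 3). *Sod2*, the mitochondrial superoxide dismutase, was at 1018, 727 and 2487 CPM against 241, 259.6 and 351 (log2 fold change −2.31 [−1.62], SE 0.50). Heat shock and cytosolic chaperones were lower in 21 of 22, 14 separate (median −0.36, −0.22 without replicate 3), with *Hspa1a* at 14.3, 11.3 and 15.2 CPM against 5.09, 6.08 and 3.37 (log2 fold change −1.49 [−1.40], SE 0.27) and its near-identical copy *Hspa1b* at −1.14 [−0.96] on the log2 fold change scale. The integrated stress response list was lower in 22 of 26, 11 separate (median −0.53, −0.45 without replicate 3), with *Mthfd2*, of mitochondrial folate metabolism, at 104, 74.9 and 123 CPM against 46.5, 54 and 26.9 (log2 fold change −1.25 [−1.07], SE 0.31).

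Eicosanoid genes went both ways. Of 18, 6 were lower and 12 higher, 6 and 7 with separate groups. The lower genes were *Ptgs2*, the inducible cyclooxygenase (−7.45 [−4.10]), *Ptges*, which makes prostaglandin E2 (−5.46 [−3.96]), *Ptges2* (−0.61 [−0.38]), *Ptges3* (−0.68 [−0.36]), *Pla2g4a* (−1.85 [−1.15]) and *Pla2g7* (−1.21 [−0.91]). The higher genes included *Ptgs1*, the constitutive cyclooxygenase (33.4, 59.9 and 23.4 CPM against 72.7, 69.9 and 135, 1.25 [0.99]), *Hpgds*, which makes prostaglandin D2 (80, 27.4 and 57 CPM against 179.6, 191 and 151, 1.67 [1.69]), *Ltc4s*, which makes leukotriene C4 (1.73 [1.46]), *Alox15*, a lipoxygenase (1.51 [1.37]), and the phospholipase *Pla2g15* (1.51 [1.19]). In *Hpgds* Tshr f/f replicate 1, not replicate 3, came nearest to the Tshr MKO values. Chemoattractant receptors also divided, with *Fpr1*, *Fpr2* and *Ccr7* (−1.74 [−1.48]) lower and *Ccr2*, the receptor that recruits monocytes (21.3, 14.7 and 11.7 CPM against 38.6, 46.2 and 65, log2 fold change 1.65 [1.47], SE 0.29), *C3ar1* (1.43 [1.05]) and *C5ar2* (1.58 [1.29]), receptors for complement fragments, higher.

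Lysosomal enzymes and membrane proteins were higher in 32 of 45, with 17 separate higher, 0 separate lower and 12 steady (median 0.24, 0.20 without Tshr f/f replicate 3), and the summed level was 64060, 50010 and 54670 CPM against 75640, 71480 and 73270, the f/f group first. *Lgmn*, the asparagine endopeptidase legumain, was at 1288, 894 and 832 CPM against 2117, 1873 and 1900.2 (log2 fold change 0.97 [0.85], SE 0.24). The protease *Ctsl* was at 793, 935 and 696 CPM against 1219, 1366 and 1512 (log2 fold change 0.76 [0.66], SE 0.21). *Tfeb*, which drives lysosomal genes, was at 28.6, 17.1 and 4.88 CPM against 48.5, 50.8 and 44.6 (log2 fold change 1.50 [1.07], SE 0.56). Of 16 vacuolar ATPase subunits 10 were lower and 6 higher, but *Atp6v0d2*, a subunit found in macrophages and osteoclasts, was at 69, 25.2 and 20.2 CPM against 124, 151 and 139 (log2 fold change 1.86 [1.55], SE 0.48). *Atp6v0a1* was at 154, 103 and 57 CPM against 318, 314 and 244 (log2 fold change 1.48 [1.19], SE 0.36). Both were steady, a rule that required separate groups.

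Sterol efflux genes and LXR targets were higher in 13 of 19, with 10 separate higher and 2 separate lower (median 0.51, 0.55 without Tshr f/f replicate 3). The cholesterol ester hydrolase *Nceh1* was at 184, 134 and 61 CPM against 322, 298 and 272 (log2 fold change 1.24 [0.91], SE 0.39). The exporter *Abcg1* was at 39.4, 34.1 and 12.4 CPM against 58.6, 59.5 and 63.1 (log2 fold change 1.07 [0.72], SE 0.40). The lipid-droplet coat *Plin2* was at 547, 342 and 501 CPM against 868, 886 and 704 (log2 fold change 0.82 [0.88], SE 0.24), with *Lipa*, the lysosomal acid lipase, at 1.12 [0.96] on the log2 fold change scale. *Ch25h*, described above, is in the same list and was lower. Phagocytosis, efferocytosis and scavenger genes were higher in 17 of 25, 10 separate higher and 4 separate lower. The bridging ligand *Gas6* was at 34.4, 15 and 5.99 CPM against 109.7, 89.6 and 96.3 (log2 fold change 2.41 [1.99], SE 0.59), and *Anxa1* (1.14 [0.91]), *Itgb5* (1.50 [1.06]) and *Trem2* (1.36 [1.02]) were also steady higher. *Marco*, a scavenger receptor for bacteria, was at 174, 219.6 and 421 CPM against 94.7, 50.8 and 36.1 (log2 fold change −2.17 [−1.69], SE 0.49), *Timd4*, a phosphatidylserine receptor, at −2.70 [−2.01] and *Tgm2*, a transglutaminase, at −1.31 [−0.88], all steady lower.

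Genes of alternative activation were higher in 14 of 22, with 7 separate higher and 0 separate lower (median 0.52, 0.60 without Tshr f/f replicate 3). The median became −0.06 without Tshr MKO replicate 3, the library with the highest mean level of this list. The summed level overlapped between the groups, at 4042, 8572 and 7813 CPM against 5399, 4899 and 8207, the f/f group first. *Mrc1*, the mannose receptor, was at 126, 53.7 and 70.1 CPM against 315, 247 and 532 (log2 fold change 2.13 [2.01], SE 0.43). *Clec10a*, a galactose-type lectin, was at 8.94, 3.09 and 1.77 CPM against 19.9, 15.6 and 51.7 (log2 fold change 2.65 [2.26], SE 0.74). *Cd163*, the hemoglobin scavenger receptor (1.38, 1.17 and 1.19 CPM against 2.82, 1.73 and 3.06, 1.02 [0.99]), was of low level in all libraries. Fatty acid oxidation genes were higher in 17 of 23, 8 separate higher and 1 lower (median 0.30, 0.16 without Tshr f/f replicate 3), with *Cpt1a*, the entry step of fatty acids into mitochondria, at 142, 90.3 and 73.7 CPM against 182, 176 and 179 (log2 fold change 0.81 [0.62], SE 0.25).

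**Figure D4:**
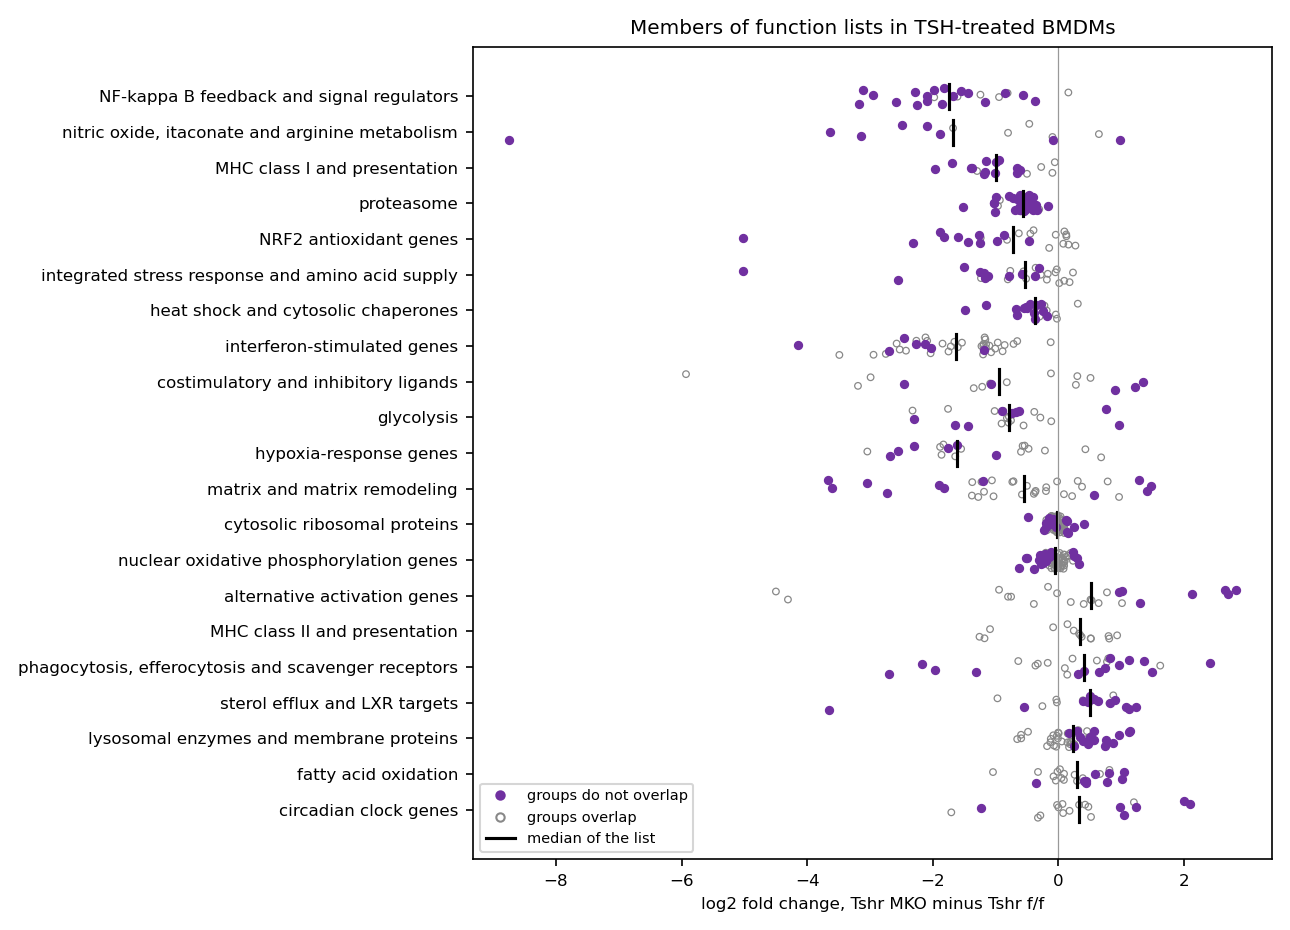
Log2 fold change (Tshr MKO minus Tshr f/f, x axis) of each tested member of 21 function lists (rows). Filled points have groups that do not overlap, open points have groups that overlap, and the bar is the median of the list. All 36 proteasome genes lie below 0, most in a narrow band around −0.56, and ribosomal and oxidative phosphorylation genes lie around 0.

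The circadian clock list was higher in 14 of 19 genes, with 5 separate higher and 1 separate lower (median 0.33, 0.26 without Tshr f/f replicate 3). The repressor *Nr1d1* (REV-ERBα, ENSMUSG00000020889, chromosome 11, 98767932–98775333, GRCm38) was at 2.56, 2.61 and 2 CPM in the f/f libraries against 11.7, 8.86 and 8.27 in the MKO libraries (log2 fold change 2.001 [1.89], SE 0.23). Its paralog *Nr1d2* was at 36.7, 21.5 and 27.5 CPM against 67.6, 55.5 and 54 (log2 fold change 1.05 [1.02], SE 0.22), and the output factors *Dbp* and *Tef* were at 2.09 [1.83] and 1.24 [0.90] on the log2 fold change scale. *Cry1*, a repressor peaking at another phase, was lower at 16.2, 17.2 and 26.9 CPM against 8.77, 7.17 and 9.86 (log2 fold change −1.22 [−0.96], SE 0.25). The hour at which each culture was lysed is not given in the sources used here, and its part in these values was not tested.

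The list of cAMP signaling and CREB target genes was higher in 19 of 33, with 9 separate higher and 1 separate lower (median 0.24, 0.185 without Tshr f/f replicate 3). The median was −0.09 without Tshr MKO replicate 3, so the list as a whole gives no direction. The adenylyl cyclase *Adcy7* was at 142, 142 and 71 CPM against 223, 214 and 249 (log2 fold change 0.95 [0.69], SE 0.29). The catalytic subunit *Prkacb* of protein kinase A was at 70, 64.8 and 63.6 CPM against 92, 94.4 and 108 (log2 fold change 0.57 [0.54], SE 0.12). The cAMP sensor *Rapgef3* was at 1.21, 0.802 and 0.192 CPM against 2.82, 3.33 and 1.71 (log2 fold change 1.81 [1.39], SE 0.62). *Pde4b*, a phosphodiesterase that degrades cAMP, was the separate lower gene (221, 202 and 737 CPM against 34.8, 28.1 and 141, −2.51 [−1.65]). In the thyroid hormone list *Thrb*, a thyroid hormone receptor, was higher with separate groups, at 0.502, 0.664 and 0.384 CPM against 1.88, 1.52 and 0.747 (log2 fold change 1.40 [1.25], SE 0.46).

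Core synthesis and respiration genes differed little. Of 78 ribosomal protein genes 8 were separate lower and 6 separate higher, with a median of −0.03, and of 73 nuclear oxidative phosphorylation genes 15 and 4, with a median of −0.05. The 13 genes encoded in the mitochondrial genome had 0 separate groups and a median of 0.10. These medians changed sign or nearly reached 0 in some alternative settings and give no direction. The direction of every other list median given above was the same with RLE factors and with library size alone.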

How the data were processed

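RNA-seq libraries of 6 TSH-treated BMDM cultures were analysed. The authors deposited a table with a raw read count for each of 55335 genes, and counts are the unit used. According to the submitters' processing notes and the study's methods, strand-specific libraries were read on a NovaSeq instrument, and Skewer, FastQC 0.11.2, STAR and StringTie were used with build mm10. The counting program and its strand setting are not given in the sources used here. Every column of the table was matched to a sample by its description.

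Genes were tested with edgeR 4.0.16 (robust quasi-likelihood, TMM factors, filterByExpr, Benjamini–Hochberg adjustment) in R 4.3.3. The SE is the log2 fold change over the square root of F. Alternatives were RLE factors, library size alone, omission of the filter, a filter at a mean of 50 counts, DESeq2 1.42.0, limma 3.58.1 voom with sample quality weights, all 12 libraries, the replicate number as a block, and each library left out. The scripts were tested on simulated data with known changes. Depth was 33683981 to 40954211 counts, and 3 counts corresponded to 0.0733 to 0.0891 CPM before TMM scaling, which covers counting error only. No pair of libraries agreed within sampling noise. The closest were Tshr MKO replicates 1 and 2, with a chi-square of the counts per degree of freedom of 12.2, against 93.1 to 752 for the other pairs.

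The members and lists were chosen with earlier results of these data known, and no set test was run. The rule named *Tshr* and *Lyz2*, the 12 steady genes with the widest gap and the 8 with the most reads in each direction outside the study's cytokine list, and, per function list, up to 3 steady genes in each direction by gap, or the 2 with the lowest p where none was steady. Symbols that are clone or model numbers were left out. Some genes that the rule named are not reported here. Further members of a list (such as *Tap1*, *Psmb9*, *Psmb10*, *Gbp3*, *Zbp1*, *Ptgs2*, *Ptgs1*, *Alox15*, *Gch1*, *Slc7a2*, *Lipa*, *Trem2*, *Tef*, *Pde4b* and *Thrb*) and the genes set out for being nearly as different without Tshr f/f replicate 3 were named after their values were seen. Gene positions are from GENCODE M21 (GRCm38) and promoter windows from RefSeq (GRCm38.p6). Figures were made with python 3.11.15 and matplotlib 3.10.9.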

Additional observations from a re-analysis of the deposited data

How the results depend on the processing

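The counts depended on the tool more than on the scaling. With edgeR, 0 genes passed an adjusted p of 0.05 (lower and higher alike), whereas DESeq2 gave 701 and 522, voom with quality weights 860 and 571, the fit of all 12 libraries 85 and 65, and the replicate block 1 and 0. With a library left out the lower count ranged from 0 to 13 (13 when Tshr f/f replicate 2 was left out, 2 when replicate 3 was) and the higher count stayed at 0. At an unadjusted p under 0.05, against 1567 lower and 1189 higher, library size alone gave 1035 lower, voom 2513 and 2187, and leaving out a library 731 to 2299 lower and 564 to 1683 higher, with the smallest counts without Tshr MKO replicate 1 (731 and 564) and without Tshr MKO replicate 2 (820 and 690). Genes with separate groups, 2146 lower and 2268 higher, became 1406 lower with library size alone and 2519 to 3816 lower and 2699 to 4006 higher with a library left out, the most without Tshr f/f replicate 2 (3816 and 4006) and next without Tshr MKO replicate 3 (3344 and 3460), since fewer values have to be ordered. Steady lower genes, 470, became 887 with library size alone. The 170 named genes kept their direction in every alternative run. Most of them were chosen as steady, a rule that already required the same direction with any single library left out. The same replicate numbers correlated by 0.096, 0.013 and 0.10 in their deviations from the group means (across genes), and not every library correlated best with its own number, so the numbers do not pair the libraries and the replicate block (1337 lower and 1098 higher at an unadjusted p under 0.05) is given only here.

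Some list medians turned. Library size alone moved cholesterol synthesis from −0.17 to 0.024, the pentose phosphate pathway from −0.13 to 0.032, the tricarboxylic acid cycle from −0.10 to 0.056, the spliceosome from −0.097 to 0.080 and ribosome biogenesis from −0.14 to 0.048, while the median of all genes moved from 0.01 to 0.175. Fatty acid synthesis went from −0.22 to 0.022 without Tshr f/f replicate 2, and alternative activation from 0.52 to −0.057 without Tshr MKO replicate 3 (0.817 without Tshr MKO replicate 2). Without Tshr MKO replicate 3 the median of cAMP genes also went from 0.24 to −0.0935 and that of MHC class II from 0.34 to −0.444, and the latter was −0.646 with voom. Medians near 0 (respiration, ribosomal proteins, vacuolar ATPase, autophagy, glucocorticoid response, mitosis, Toll-like receptors, actin and complement) turned in some settings as well. Growth factors went from −0.21 to 0.134 with voom, 0.052 when Tshr f/f replicate 2 was left out and 0.048 to −0.342 over the Tshr MKO replicates left out, and the cause was not tested. With 3 libraries a group and 1 Tshr f/f library apart from the rest, sizes of large differences are uncertain.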
